A study of Mus musculus with 8 samples.

Results

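Of the 1915 mature miRNA entries counted in each library, 7 were examined: mmu-miR-2137, mmu-miR-690, mmu-miR-714, mmu-miR-712-5p, mmu-miR-1195, mmu-miR-6240 and mmu-miR-6539, written below without the mouse prefix. They were chosen as atypical entries, some of them suspected fragments of ribosomal or other RNA, whose counts varied between libraries of one group. The variation between libraries of a group is therefore described here without a test. The study sequenced small RNA of mouse embryonic stem cells, with 4 groups of 2 libraries. The wild type group was E14, a line of the 129/Ola strain (libraries A and B). The second group was a pair of Ago2 knockout lines, 1 and 2, so its libraries differ in line as well as in sample. The other 2 groups were a line given as Ago2KO1-AGO1 in the genotype and source labels and as Ago2KO-AGO1 in the sample titles, with inducible ectopic AGO1 in Ago2 knockout cells. It was sampled without doxycycline (uninduced, A and B) and with doxycycline at 1 µg/mL (induced, A and B), and all 4 of these libraries lack Ago2 by label and grew in puromycin at 2 µg/mL. Medium for each group held 15% serum and LIF at 100 U/mL, and dishes were coated with gelatine. Nothing in the labels marks A and B as separate cultures, so the p-values measure the spread between these samples, which may be technical.

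A canonical miRNA is cut from a hairpin by Drosha and Dicer, and one strand of the short duplex is kept by an Argonaute protein, which protects it from decay. Argonaute proteins use bases near the 5′ end of the miRNA, the seed, to find target RNAs. Small RNA libraries also take up short pieces of ribosomal RNA, transfer RNA and repeat transcripts, and some such pieces were entered in miRNA annotations from sequencing reads. In bulk RNA, fewer cells holding a small RNA and less of it per cell cannot be told apart. Ago2 mRNA was not measured, so the genotypes rest on the labels.

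Library totals ranged from 163467 to 1326638 counts, and levels below are in CPM, counts scaled to a common total by library size and edgeR's TMM factor. The 7 embryonic stem cell markers (miR-290a-3p, miR-291a-3p, miR-293-3p, miR-294-3p, miR-295-3p, miR-302a-3p and miR-302b-3p) held 16.4 to 20.9% of each library. Of 4 blood markers, miR-142a-3p and miR-150-5p together held 0.139 to 0.543%, and miR-223-3p and miR-451a had no count. Neuron markers held 0.0285 to 0.0557%, muscle markers 0 to 0.000683%, and the liver marker miR-122-5p had no count.

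Sequences are shown first because their composition, length and copies can be set beside those of other entries. RefSeq (GRCm38.p6) gave a mature sequence for 4 of the 7 by name, shown 5′ to 3′ with the seed (bases 2 to 8) in capitals.
miR-2137: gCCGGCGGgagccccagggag
miR-690: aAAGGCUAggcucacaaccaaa
miR-1195: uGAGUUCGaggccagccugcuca
miR-6240: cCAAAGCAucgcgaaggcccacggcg
The other 3 entries are miR-714, miR-712-5p and miR-6539. No seed was shared among the 4. The seed of miR-6240 was also that of miR-330-3p, and those of the other three belonged to no other entry, as for 72.2% of the 1621 entries with a sequence. miR-2137 had a GC content of 85.7%, the 6th highest of the 1621, whose median was 52.2%. miR-6240 was 26 bases long, against a median of 22 and a maximum of 27, with a GC content of 69.2%. In the annotation's naming, 6 of the 7 entries carried no arm suffix, which is given where both arms of a hairpin are listed, against 324 of the 1915 entries.

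Copies of the sequences elsewhere were counted as annotated genes, other than miRNA genes, that hold an identical run of 18 bases. Matches to the ribosomal RNA precursor were not analysed here, so a count of 0 says nothing about it. miR-1195 had such a run in the sense direction in 626 of the 53248 genes searched and in the antisense direction in 649, and miR-690 in 8 and 6. miR-2137 and miR-6240 had none in either direction. Of the 1621 entries, 74.8% had no gene with a sense run, and 1.17% had 10 or more genes with a run in either direction. miR-1195 and miR-690 are both in that small class.

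The genome positions are from GENCODE vM21 on GRCm38. The Mir2137 hairpin lies at chrX:72992079-72992144 (+), in an intron of Zfp185 on the same strand, and Mir690 at chr16:28599935-28600043 (-), in an intron of Fgf12 on the same strand. Mir1195 lies at chr17:70860503-70860600 (-), opposite an intron of Gm9320, a transcribed processed pseudogene. Mir6539 lies at chr14:67859636-67859745 (-), in an intron of Dock5 on the same strand. Mir6240 lies at chr5:114851948-114852064 (+) and overlaps no other gene, the nearest being 4930519G04Rik at 1600 bases. The 5 positions share no chromosome, so no pair of these entries is clustered. miR-712 has been described from a spacer of the mouse ribosomal RNA precursor, and its position and that of miR-714 were not analysed here.

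Hairpins in RefSeq for 3 of the entries are shown with the mature product in capitals, because a canonical miRNA is cut from a folded hairpin.
miR-2137 hairpin: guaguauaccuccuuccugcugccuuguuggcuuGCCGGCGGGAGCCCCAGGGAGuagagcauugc
miR-690 hairpin: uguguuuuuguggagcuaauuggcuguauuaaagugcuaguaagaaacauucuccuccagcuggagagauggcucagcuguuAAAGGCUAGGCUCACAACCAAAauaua
miR-6240 hairpin: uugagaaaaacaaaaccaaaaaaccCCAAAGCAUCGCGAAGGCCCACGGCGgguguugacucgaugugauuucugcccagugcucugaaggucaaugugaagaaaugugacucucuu
The minimum free energy predicted by RNAfold was -21.1 kcal/mol per 100 bases for the miR-6240 hairpin, and 0.856% of 1635 products of RefSeq hairpins came from a less stable one. The miR-690 hairpin had -26.6 kcal/mol per 100 bases (4.10% less stable) and folded into 3 loops, whereas 95.4% of the 1635 came from hairpins with 1 loop. The miR-2137 hairpin, at -37.3, was closer to the median of -41.4, with 32.0% less stable. The paired share of the mature product was 81.0% for miR-2137, 68.2% for miR-690 and 73.1% for miR-6240, against a median of 81.0%. A predicted fold does not show how a product is made in cells.

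The 7 entries together took 0.205% of wild type A and 0.294% of wild type B. They took 0.612% of knockout 1 and 4.24% of knockout 2. They took 1.61 and 3.17% of uninduced A and B, and 0.610 and 0.604% of induced A and B. The largest shares were in the 2 libraries with the lowest totals, knockout 2 (163467 counts) and uninduced B (292895 counts). In knockout 2, miR-2137 alone took 2.53% of all counts, and in uninduced B 1.62%. The part of depth in these shares was not tested.

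**Figure D1:**
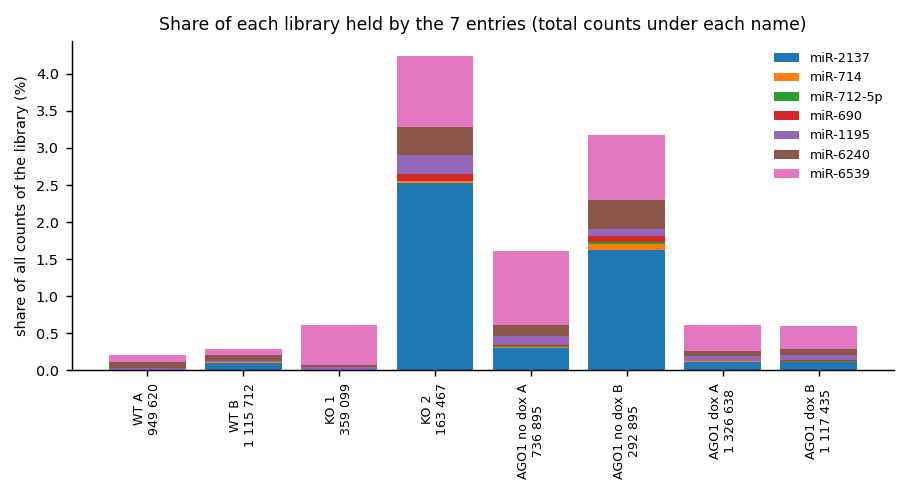
Stacked bars give the share of all counts (%) that each of the 7 entries held in each library, with the library total printed under its name (WT, wild type; KO, knockout; dox, doxycycline). The sum ranged from 0.205% in wild type A to 4.24% in knockout 2, where miR-2137 took 2.53%.

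mmu-miR-2137 had the widest range of the 7. Its level was 85.4 and 1052 CPM in wild type A and B, 32.4 and 20821 CPM in knockout 1 and 2, 2978 and 15727 CPM in uninduced A and B, and 1327 and 1253 CPM in induced A and B. Knockout 2 was thus 642-fold above knockout 1 (95% counting interval 375 to 1207, from 4139 and 13 counts), the largest ratio between libraries of a group among the 475 entries that passed the abundance filter. The wild type pair differed 12.3-fold (9.70 to 15.8), also the largest of the 475 in that group, and the uninduced pair 5.28-fold (5.02 to 5.56). The induced pair was close together, with a ratio of B over A of 0.944. Counting intervals are exact binomial and cover counting error only. With a mean of 5409 CPM, miR-2137 ranked 28th in abundance of the 475.

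mmu-miR-690, which has been studied as a miRNA carried by macrophage exosomes, varied in the same libraries at a lower level. It had 19.0 and 38.7 CPM in wild type A and B, 9.98 and 709 CPM in knockout 1 and 2, 192 and 708 CPM in uninduced A and B, and 49.6 and 185 CPM in induced A and B. The knockout lines differed 71.1-fold (27.2 to 264), and only 4 counts were seen in knockout 1. miR-690 was the only one of the 7 past 2-fold in the induced group, where B was 3.74-fold above A (2.77 to 5.11), the largest ratio of the 475 in that pair. The uninduced pair differed 3.69-fold (2.97 to 4.59).

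mmu-miR-714 had 5.93 and 15.3 CPM in wild type A and B, from 5 and 17 counts. It had 27.4 and 161 CPM in knockout 1 and 2, 162 and 827 CPM in uninduced A and B, and 82.1 and 73.7 CPM in induced A and B. Uninduced B was 5.09-fold above A (4.08 to 6.37), the third largest ratio of the 475, and knockout 2 was 5.87-fold above knockout 1 (2.88 to 12.9). The wild type ratio of 2.58 had an interval (0.913 to 8.94) that includes 1, so a difference there was not detectable at this depth.

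mmu-miR-712-5p was the least abundant of the 7, with 215 counts in all. It had 15.4 and 4.50 CPM in wild type A and B (13 and 5 counts), 0 and 55.3 CPM in knockout 1 and 2 (0 and 11 counts), 71.9 and 235 CPM in uninduced A and B, and 27.4 and 28.9 CPM in induced A and B. A count of 0 allows up to 7.48 CPM in knockout 1 (3 counts). Knockout 2 was 7.39-fold above that level, and the 95% counting interval of the ratio starts at 5.06. miR-712-5p was the one member past 2-fold in wild type with A above B, by 3.43-fold (1.15 to 12.3). The other arm of its hairpin, miR-712-3p, had 20 counts in the 8 libraries, at most 10 in one.

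mmu-miR-6240 had 966 and 789.8 CPM in wild type A and B, 247 and 3084 CPM in knockout 1 and 2, 1436 and 3729.9 CPM in uninduced A and B, and 777 and 840.1 CPM in induced A and B. It was steady in the wild type and induced pairs and differed 12.5-fold between the knockout lines (10.1 to 15.6) and 2.60-fold between the uninduced libraries (2.39 to 2.83). mmu-miR-1195 had 165 and 135 CPM in wild type A and B, 324 and 2198 CPM in knockout 1 and 2, 1155 and 1005 CPM in uninduced A and B, and 650.1 and 810.2 CPM in induced A and B. Only its knockout pair was past 2-fold, at 6.78-fold (5.56 to 8.31).

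mmu-miR-6539 went against the description that chose it. It had 1057 and 917 CPM in wild type A and B, 4839.8 and 7797 CPM in knockout 1 and 2, 9766 and 8498 CPM in uninduced A and B, and 4014 and 3539.7 CPM in induced A and B. Its ratios within groups were 0.868, 1.61, 0.870 and 0.882 (B over A, or line 2 over line 1), and none was past 2-fold. Its residual deviance in the edgeR fit, how far its libraries lay from the fitted group levels, ranked 272nd of 475. The other 6 members took ranks 1 to 6 (miR-2137, miR-690, miR-6240, miR-712-5p, miR-714 and miR-1195 in that order). Those 6 were chosen for such variation, so their ranks restate it.

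**Figure D2:**
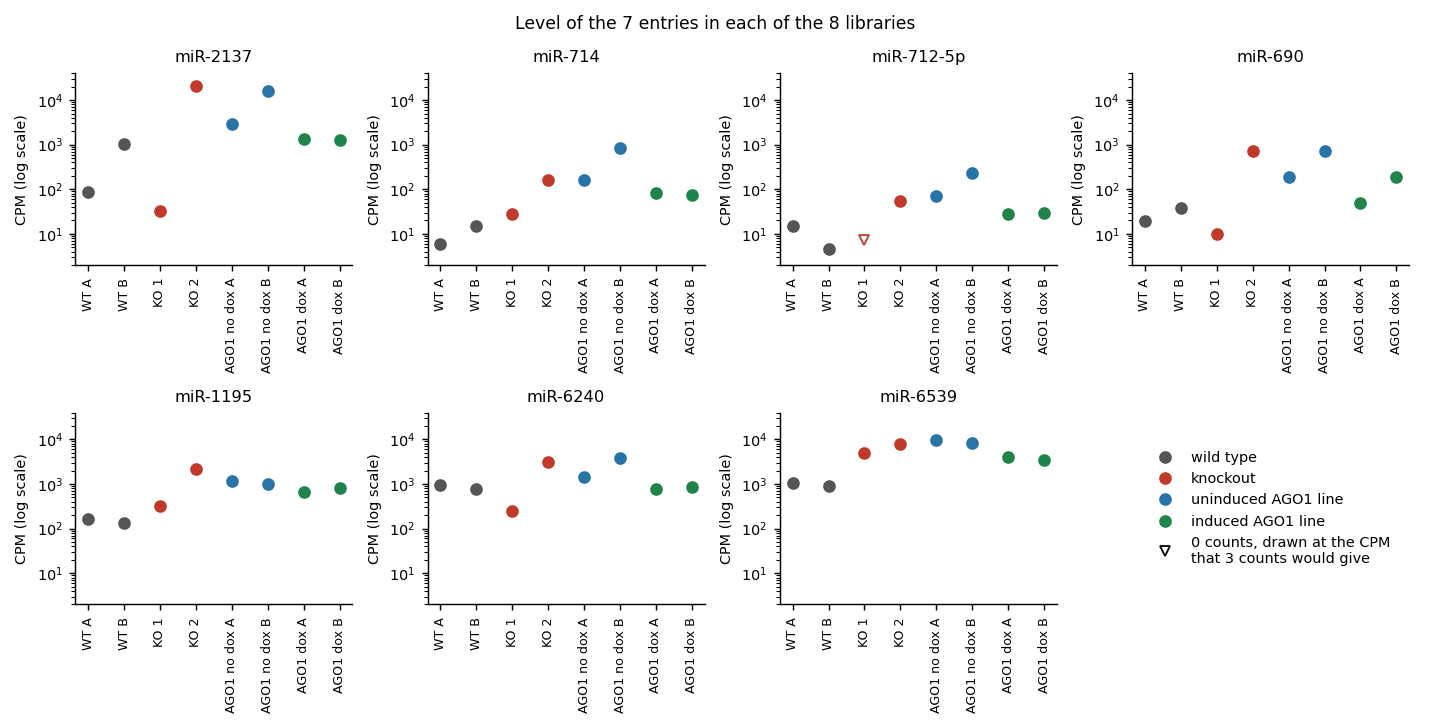
Each panel gives one entry's level (CPM, log axis) in the 8 libraries, coloured by group (WT, wild type; KO, knockout; dox, doxycycline); an open triangle marks 0 counts, drawn at the CPM that 3 counts would give. miR-2137 spans 32.4 to 20821 CPM, while the libraries of each group lie close together for miR-6539.

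Counted over the pairs on a log2 scale with a prior count of 2, 3 of the 7 members differed past 2-fold in wild type (miR-2137, miR-714 and miR-712-5p), where 5.89% of the 475 tested entries did. In the knockout pair 6 of 7 did, against 26.7% of all tested, and all 6 were higher in line 2. In the uninduced pair 5 of 7 did, against 10.5%, all higher in B. In the induced pair 1 of 7 did, against 2.32%. Since members were chosen on these values, nothing is read from the counts against the background. In line 2 all 7 members were above line 1, as were 241 of all 475 entries. In uninduced B 5 of 7 were above A, as were 224 of 475. These counts use the same values, so nothing is read from them either.

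**Figure D3:**
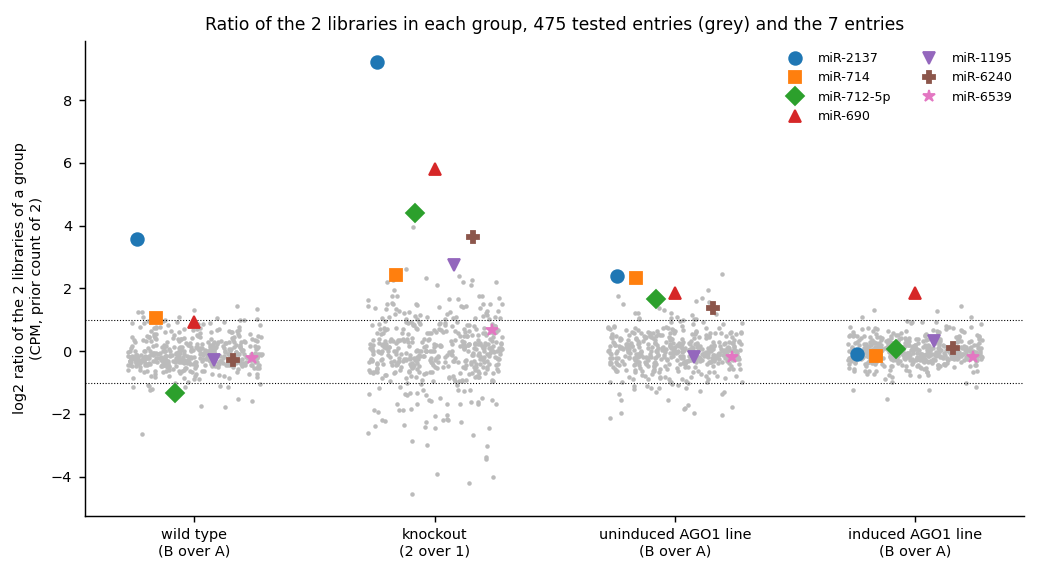
Points give the log2 ratio of the 2 libraries of each group (CPM with a prior count of 2) for the 475 tested entries, with the 7 entries as coloured symbols and dotted lines at 2-fold. In the knockout pair 6 of the 7 lie above the upper line, and in the induced pair miR-690 alone does.

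Comparing the knockout lines with wild type addresses what loss of AGO2 does to small RNA levels. miR-6539 rose 6.40-fold, from 987 ± 98.8 to 6319 ± 2091 CPM (SD, n = 2), with both knockout lines above both wild type libraries. miR-1195 was 8.31-fold higher and miR-714 was 7.64-fold higher, each with both lines above both wild type libraries. For miR-714 the step from wild type B (17 counts) to knockout 1 (11 counts) lay within counting error (wild type B over knockout 1, 0.557, interval 0.246 to 1.32). In edgeR's quasi-likelihood test with Benjamini-Hochberg adjustment over 475 entries, 4 of 7 members were called at an adjusted p under 0.05, all higher, where 57.7% of all tested entries were called, 25.5% higher and 32.2% lower. The log2 fold change was 2.68 ± 0.24 (SE) for miR-6539 (edgeR adjusted p = 1.52e-05), 3.05 ± 0.65 for miR-1195 (0.00331) and 2.93 ± 0.99 for miR-714 (0.0287).

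The fourth call, miR-690 (3.53 ± 1.31, edgeR adjusted p = 0.0402), rested on knockout 2, since knockout 1 at 9.98 CPM lay below both wild type libraries. miR-2137 had the largest fitted change of the 7, 4.19 ± 1.86, and was not called (edgeR adjusted p = 0.0767). miR-712-5p at 1.09 ± 1.28 (0.476) and miR-6240 at 0.91 ± 0.80 (0.343) were not called either. The median log2 fold change was 2.93 over the 7 members and -0.12 over all 475. Members were chosen for variation within groups, and a high library also raises its group's level, so nothing is read from this difference. The 2 blood markers with counts, of 4 named, were also called higher (miR-142a-3p 3.29 ± 0.38, edgeR adjusted p = 8.46e-05; miR-150-5p 1.11 ± 0.21, 0.00159). Their summed level was 1427 to 1569.8 CPM in wild type and 3139 to 4026 CPM in knockout, and miR-223-3p and miR-451a were at 0; their part in the members' result was not tested. Groups did not overlap for 3 of 7 members, against 77.3% of all tested.

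edgeR draws each entry's spread towards that of all entries, which understates it for entries chosen as variable. With edgeR's robust option, which relaxes this for outlying entries and was added after the data were seen, miR-6539 kept its call (edgeR adjusted p = 7.74e-08). miR-1195 (edgeR adjusted p = 0.0538), miR-714 (0.142) and miR-690 (0.203) did not, which left 1 call among the 7. miR-690 also lost its call with the DESeq2 Wald test (adjusted p = 0.0592), at a mean CPM of at least 20 (edgeR adjusted p = 0.0523) and with only the 2 groups in the fit (0.0921). Without wild type A or B, miR-714 (edgeR adjusted p = 0.119 and 0.0547) and miR-690 (0.179 and 0.107) also lost their calls, and 2 members were called.

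**Figure D4:**
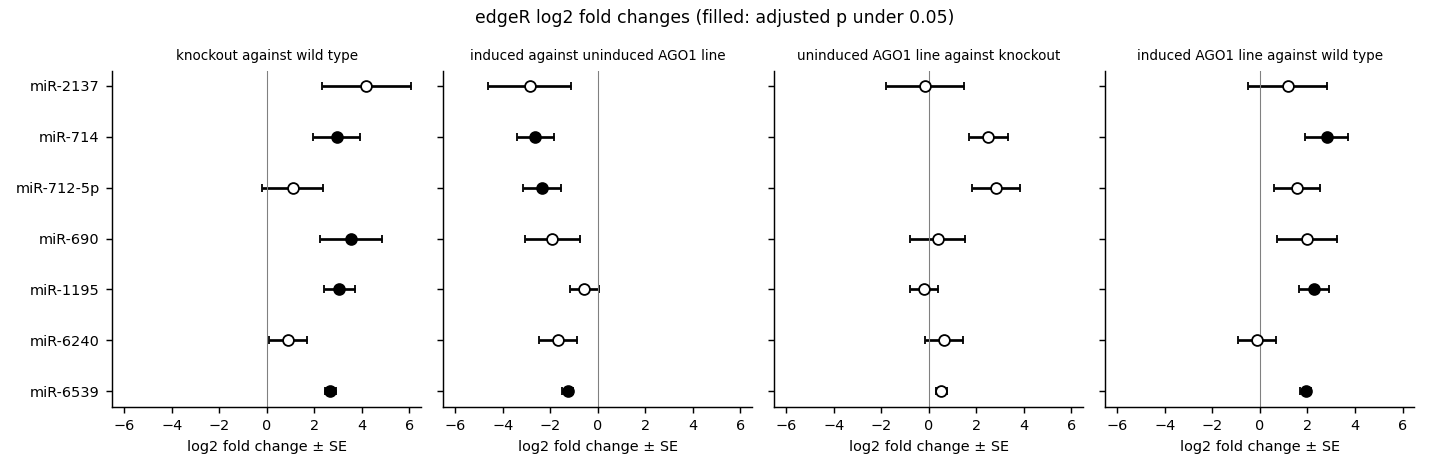
Points give edgeR log2 fold changes with bars of 1 SE for the 7 entries in 4 comparisons of groups of 2 libraries, filled where the adjusted p was under 0.05 without the robust option. The bars of miR-6539 are the shortest in each panel, and those of miR-2137 the longest.

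The 2 knockout lines did not place these entries alike against wild type. Line 2 was above both wild type libraries for all 7. Line 1 was above both for miR-714, miR-1195 and miR-6539, and below both for miR-2137, miR-690 and miR-6240. For miR-712-5p its 0 counts allow a level above that of wild type B, so its place was not detectable at this depth. Knockout and wild type libraries did not overlap, in one direction or the other, for 77.3% of all tested entries. Lying beyond both wild type libraries was thus common for a knockout line. The share of all tested entries for each line alone was not counted here. Members were chosen for variation between libraries, so nothing is read from how many lay above or below. For miR-2137, line 2 was 19.8-fold above wild type B (counting interval 18.6 to 21.1), while wild type B was 32.4-fold above line 1 (18.9 to 61.1). For miR-6240, line 2 was 3.90-fold above wild type B, and wild type B was 3.20-fold above line 1. For miR-690, wild type A was 1.90-fold above line 1 with an interval of 0.614 to 7.82, so that step lies within counting error, as does the step of miR-714 from wild type B.

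With line 1 as the only knockout library, the fitted log2 fold change against wild type was -4.08 for miR-2137, -1.51 for miR-690 and -1.79 for miR-6240. With line 2 alone it was 5.21, 4.59 and 1.82. The sign thus turned with the line for these 3, and it also turned for miR-712-5p, whose value with line 1 alone rests on 0 counts and is no bound. It held for miR-714 (1.34 and 3.85), miR-1195 (1.15 and 3.88) and miR-6539 (2.33 and 2.99), line 1 first. Knockout 2 had the lowest total of the 8 libraries, and line, library and depth cannot be told apart here.

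**Figure D5:**
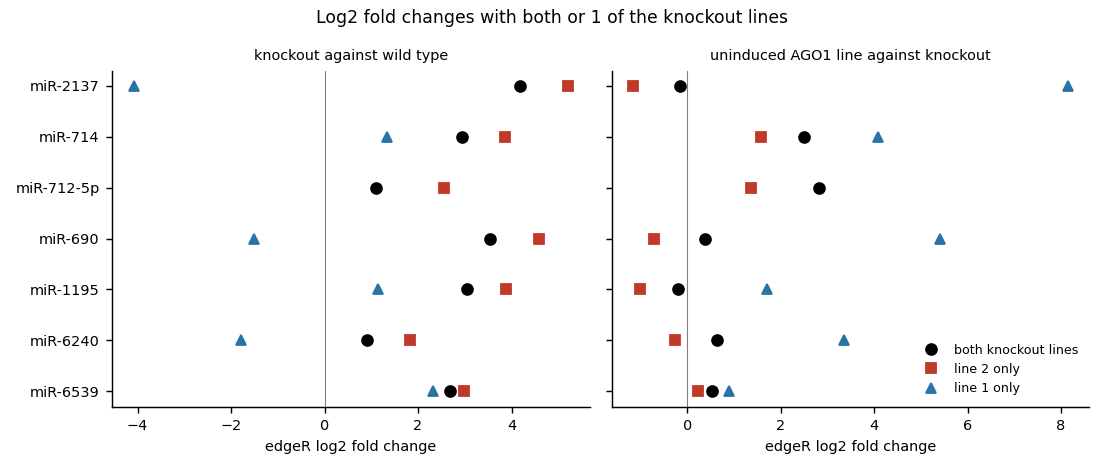
Points give edgeR log2 fold changes with both knockout lines (circles), line 2 alone (squares) and line 1 alone (triangles), for knockout against wild type on the left and the uninduced AGO1 line against knockout on the right; the triangle of miR-712-5p, which had 0 counts in line 1, is left out. Against wild type, triangles and squares lie on opposite sides of 0 for miR-2137, miR-690 and miR-6240.

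Comparing the induced with the uninduced AGO1 line addresses giving doxycycline, to switch on AGO1, to cells without AGO2. No group without inducible AGO1 received doxycycline, and AGO1 was not measured, so drug and AGO1 cannot be told apart. All 7 members were lower with doxycycline, and both induced libraries lay below both uninduced libraries for each, which held for 72.4% of all tested entries in one direction or the other. miR-6539 fell 2.42-fold, from 9132 ± 896 to 3777 ± 335 CPM (SD, n = 2). miR-714 went from 495 ± 470 to 77.9 ± 5.92 CPM, and miR-712-5p from 153 ± 115 to 28.1 ± 1.08 CPM.

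In the edgeR test with adjustment over the 475 entries, 3 of 7 members were called, all lower, where 28.8% of all tested were called, 7.79% lower and 21.1% higher. The log2 fold changes were -1.27 ± 0.23 for miR-6539 (edgeR adjusted p = 0.00285), -2.63 ± 0.77 for miR-714 (0.0276) and -2.36 ± 0.79 for miR-712-5p (0.0473). miR-2137 had the largest fitted change, -2.86 ± 1.75 (edgeR adjusted p = 0.250), and was not called. Nor were miR-690 (-1.91 ± 1.16, 0.247), miR-6240 (-1.67 ± 0.81, 0.148) and miR-1195 (-0.57 ± 0.60, 0.502). The median was -1.91 over the 7 members and 0.03 over all entries. Nothing is read from this difference either, since uninduced B was a high library for members chosen on such variation. The blood markers summed to 4643 to 5254 CPM in uninduced and 2881 to 3115 CPM in induced libraries, with miR-150-5p called lower (-0.72 ± 0.21, edgeR adjusted p = 0.0252) and miR-142a-3p not (-0.73 ± 0.34, 0.140); their part was not tested.

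With the robust option miR-6539 alone was called (edgeR adjusted p = 0.000331), and miR-714 (0.148) and miR-712-5p (0.172) were not. Without uninduced B, the second shallowest library, miR-714 stood at -1.21 (edgeR adjusted p = 0.225) and miR-712-5p at -1.51 (0.200), which left 1 call. One call was also left without wild type A, induced A or induced B, each of which bears on the shared spread or on the means. Without knockout 1 or 2, edgeR gave every entry the trend's spread and called all 7. With the robust option in the same fits it called 3.

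Both uninduced libraries of the AGO1 line were above knockout line 1, labelled Ago2KO1 like the start of the AGO1 line's genotype label, for all 7 members. The share of all 475 entries was not counted here. Line 1 was the lower of the 2 knockout lines for all 7, which were chosen on such variation, so nothing is read from this number. For miR-2137 uninduced A and B were 91.8-fold and 485-fold above line 1, and for miR-690 19.2-fold and 70.9-fold. For miR-6539 they were 2.02-fold and 1.76-fold above it. Line 2 lay above both uninduced libraries for miR-2137 and miR-1195, and below both for miR-712-5p and miR-6539. For miR-690 it was level with uninduced B (709 and 708 CPM), and for miR-714 with uninduced A (161 and 162 CPM).

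Against the 2 lines together, edgeR called 0 of 7 members and 0% of the 475 entries. At an unadjusted p under 0.05 it had 3 members (miR-714, miR-712-5p and miR-6539) and 72 entries (15.2%), and the DESeq2 Wald test called 0 members and 8 entries. The fitted log2 differences, uninduced minus knockout, were 2.51 ± 0.83 for miR-714, 2.82 ± 1.02 for miR-712-5p and 0.53 ± 0.23 for miR-6539, with edgeR adjusted p of 0.216, 0.252 and 0.299. miR-2137 stood at -0.16 ± 1.63, miR-690 at 0.37 ± 1.16, miR-1195 at -0.20 ± 0.60 and miR-6240 at 0.64 ± 0.80. Groups did not overlap for 3 of 7 members, against 44.6% of all tested. The nearest libraries, knockout 2 and uninduced A, were level for miR-714 (161 and 162 CPM). For miR-712-5p they stood at 55.3 and 71.9 CPM, from 11 and 54 counts. Without line 2 all 7 were called, and 3 with the robust option (miR-712-5p, miR-1195 and miR-6539). Without line 1 the numbers were 3 and 1. With line 1 alone, miR-1195 was higher in the uninduced line by 1.72 on the log2 scale, and with line 2 alone it was lower, at -1.02.

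Induced cells against wild type, a comparison that shares its libraries with those above, addresses how far the AGO1 line with doxycycline stood from cells with AGO2. miR-6539 was 3.83-fold higher and miR-1195 4.87-fold, and miR-714 rose from 10.6 ± 6.62 to 77.9 ± 5.92 CPM (SD, n = 2). These 3 of 7 were called by edgeR, all higher, where 38.9% of all tested were called, 19.2% higher and 19.8% lower. Their log2 fold changes were 1.94 ± 0.24 (edgeR adjusted p = 0.00033), 2.28 ± 0.63 (0.0179) and 2.81 ± 0.90 (0.0335).

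miR-6240 was the one member whose induced and wild type libraries overlapped, at 808 ± 44.9 and 878 ± 125 CPM, with a log2 difference of -0.12 ± 0.79 (edgeR adjusted p = 0.919). Groups did not overlap for the other 6 members, against 76% of all tested. Both counted blood markers were called higher here too, miR-142a-3p by 1.81 ± 0.37 (edgeR adjusted p = 0.00406) and miR-150-5p by 0.97 ± 0.21 (0.00495). miR-690 (1.99 ± 1.25, edgeR adjusted p = 0.223), miR-712-5p (1.56 ± 0.96, 0.214) and miR-2137 (1.18 ± 1.66, 0.612) were not called. With the robust option miR-6539 kept its call (edgeR adjusted p = 9.53e-06), and miR-1195 (0.125) and miR-714 (0.152) did not. Leaving out induced B or either wild type library left 1 call. Without knockout 1 or 2 it was 6, and 3 with the robust option.

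By mean level, miR-6539 increased in the order wild type, induced, knockout and uninduced. The uninduced and knockout groups, neighbours at the top of that order, were not told apart by the test. miR-714 had the order wild type, induced, knockout, uninduced, with the induced mean of 77.9 CPM inside the range of the knockout lines. For miR-2137 the means rose from wild type through induced and uninduced to knockout, and no pair of neighbours was called. That knockout mean averages 32.4 CPM in line 1, the lowest of the 8 libraries, and 20821 CPM in line 2. miR-690 had the order wild type, induced, knockout, uninduced, again with no neighbours called among the pairs tested. For miR-712-5p the knockout and induced means, 27.7 and 28.1 CPM, were next to each other between wild type and uninduced. miR-1195 rose from wild type through induced and uninduced to knockout, and of these neighbours wild type and induced alone were called. For miR-6240 the induced and wild type means were lowest and the uninduced mean was highest, and no pair was called. The knockout lines differed past 2-fold for 6 of the 7 members, all but miR-6539, so the place of the knockout mean in their orders carries little weight. Induced cells were not tested against the knockout lines. A mature product is counted as one read whatever its length, and the 4 with a sequence are 21 to 26 bases long. Means over the 8 libraries, in CPM with no correction for length, are given only to place the members: miR-2137 and miR-6539 had 5409 and 5054 CPM, miR-6240 1484, miR-1195 805, miR-690 239, miR-714 169 and miR-712-5p 54.8 CPM.

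Likeness of level over the 8 libraries is described by Pearson's r of log2 CPM, where all points share their library and its depth. Members were chosen for variation between these same libraries, so nothing is read from likeness among members or its lack. miR-2137 was most like miR-690 (r = 0.95), and both were like miR-6240 (0.89 and 0.89), which in turn was like miR-712-5p (0.90). miR-6539 stood apart from this set, with r of 0.54 to miR-2137 and 0.41 to miR-6240, and was nearer to miR-1195 (0.89) and miR-714 (0.85). Among all tested entries the nearest to miR-6539 were miR-195a-3p (0.99), miR-335-3p (0.98) and miR-299a-3p (0.98), and the nearest to miR-1195 were miR-30d-3p (0.97), miR-290b-5p (0.96) and miR-466d-5p (0.94). The nearest to miR-714 were miR-34b-3p (0.94), miR-125a-3p (0.92) and miR-34c-5p (0.90).

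For miR-6240 the nearest entries were miR-6538 (0.96), miR-5126 (0.92) and miR-10a-5p (0.90). miR-6538 had 0 counts in knockout 1 and 8 in knockout 2, and 13.3 and 46.3 CPM in uninduced A and B, so it was high in the same libraries at a much lower level. miR-5126 had at most 6 counts in a library, and a likeness at such counts carries little weight. Beside members, miR-2137 was most like miR-466e-5p (0.90), miR-690 like miR-5126 (0.88), and miR-712-5p like miR-320-3p (0.89) and miR-1934-5p (0.87). Pearson's r takes no account of the size of a change. miR-466e-5p ranged only from 26.1 CPM in wild type A to 60.4 CPM in knockout 2. miR-320-3p ranged from 237 CPM in knockout 1 to 400 CPM in uninduced B.

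A list of 8 other entries known or suspected to overlap ribosomal RNA (miR-712-3p, miR-5102, miR-5105, miR-5109, miR-5115, miR-6236, miR-6238 and miR-6239) served for comparison. Of these 8, 4 were in the table and 2 passed the abundance filter, and together they held 0.000151 to 0.00306% of a library. miR-712-3p had 10 and 4 counts in uninduced A and B and 0 and 2 in induced A and B. It was called lower with doxycycline (log2 fold change -3.61 ± 1.06, edgeR adjusted p = 0.0276), as was its other arm miR-712-5p. At such counts the call of miR-712-3p carries little weight, and that of miR-712-5p was lost with the robust option. miR-6238 followed another course, with 16 counts in wild type B, 3 in wild type A and 1 in each knockout line, and was not called in the 4 comparisons.

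For scale, the 6 measured 3p arms of the miR-290 cluster, known as the dominant miRNA cluster of mouse embryonic stem cells, held 19.9 to 24.3% of each library. One of these 6, miR-290a-3p, differed past 2-fold between the wild type libraries, and none did in the other 3 pairs. In the knockout and uninduced pairs, where none of the 6 did, miR-2137 differed 642-fold and 5.28-fold. Since miR-2137 was chosen for such variation and the 6 arms were not, nothing is read from this difference.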

How the data were processed

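The authors deposited raw counts per mature miRNA for 8 libraries, made per the labels from 1 µg of total RNA with a TruSeq small RNA kit. Bowtie and mm10 are named in the submitters' processing notes. How reads were trimmed, how multiple matches were counted, and which miRNA release was used is not given in the sources used here. Of 2 header lines the first was used; in the second, 1 name belongs to the other wild type library.

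Of 1915 entries, 901 had no count and 475 passed edgeR's filterByExpr, among them all 7 members. Counts were tested in R 4.3.3 with edgeR 4.0.16 (quasi-likelihood F test, 2-sided, TMM factors 0.881 to 1.22, 4 groups in 1 fit, 4 residual degrees of freedom, Benjamini-Hochberg over 475 entries), with DESeq2 1.42.0 as an alternative. The SE is the log2 fold change divided by the root of F. A count of 0 was read as allowing 3 counts, 2.57 to 15.1 CPM by library. Hairpins were folded with RNAfold 2.7.2. The scripts were tested on simulated data. The members, lists and alternatives were chosen with earlier results of these data known. Named entries are the members, the 3 entries most like each, and the lists.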

Additional observations from a re-analysis of the deposited data

How the results depend on the processing

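With all libraries, edgeR called 4 of 7 members in knockout against wild type, 3 in induced against uninduced, 0 in uninduced against knockout and 3 in induced against wild type. In knockout against wild type, thinning to the smallest library gave 2, no abundance filter 6, leaving out single libraries gave 2 to 7, and the robust option (added after the data were seen) gave 1, with a filter or without one. In induced against uninduced, no abundance filter gave 6, only the 2 groups compared 7, single libraries left out 1 to 7, the robust option 1 with or without the filter, and leaving out the 2 shallowest libraries (also added) 6, or 5 with the robust option. In uninduced against knockout the counts were 2 with no filter, 0 to 7 without single libraries, and 7 without the 2 shallowest, or 5 with the robust option. In induced against wild type they were 6 with no filter, 5 with only the 2 groups, 1 with thinned counts, 1 to 6 without single libraries, 6 without the 2 shallowest, and 1 with the robust option, filtered or not. With single knockout lines the robust option gave 1 to 3 over the comparisons. In the fits without a filter, without a knockout line or without the 2 shallowest libraries, edgeR's prior degrees of freedom were infinite, against 6.31 with all libraries, so the entries' own spread was not used. A replicate block for the letters, fitted without the knockout lines, gave 7 for induced against uninduced and 5 for induced against wild type. The labels do not say that letters pair samples, and same-letter deviations correlated over the tested entries at -0.01 to 0.24.

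Signs that turned were, on the log2 scale without the 2 shallowest libraries, -3.96 for miR-2137, -5.95 for miR-712-5p (0 counts, no bound), -1.37 for miR-690 and -1.64 for miR-6240 in knockout against wild type, 6.49 for miR-2137 and 1.80 for miR-1195 in uninduced against knockout, and 0.0752 for miR-6240 in induced against wild type, the last also 0.0567 with TMM factors from the other entries. With single libraries left out, knockout against wild type ranged from -4.08 to 6.90 for miR-2137, -1.79 to 1.82 for miR-6240, -1.51 to 4.59 for miR-690 and -5.92 to 2.54 for miR-712-5p. Uninduced against knockout ranged from -1.02 to 1.72 for miR-1195, -1.57 to 8.14 for miR-2137, -0.26 to 3.36 for miR-6240 and -0.71 to 5.40 for miR-690, and induced against wild type from -0.26 to 0.21 for miR-6240. A lone library was assumed to vary like the other groups. miR-6539 kept its 3 calls in all 22, 23 and 23 alternatives run. Library totals without TMM factors moved the median of all entries from -0.12 to 0.16 in knockout against wild type and from 0.03 to -0.17 in induced against uninduced. Apart from the alternatives named, the cause of these changes was not tested.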

Other observations

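The 33 other tested entries named without an arm suffix varied more than entries with one in some pairs only. Their share past 2-fold was higher in wild type and the uninduced pair, closer in the knockout pair and lower in the induced pair. Past 2-fold were 21.2% of them in wild type, 30.3% in the knockout pair, 24.2% in the uninduced pair and 0% in the induced pair. For entries with a suffix, miR-712-5p among them, the shares were 4.36, 25.7, 8.72 and 2.29%. No test was made of these shares. Of the 11 tested entries other than members with a GC content of 70% or more, 9.09% were past 2-fold in wild type. In the knockout, uninduced and induced pairs the shares were 27.3, 54.5 and 9.09%. Over all tested entries, members included, they were 5.89, 26.7, 10.5 and 2.32%. Of the 10 tested entries other than members with a shared run in 10 or more genes, the shares were 10, 0, 30 and 10%.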
